A study of Homo sapiens with 8 samples.

Results

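The arrays of Reh cells transfected with IKKβ(EE) alone were compared with those of mock-transfected Reh cells, across all genes. Reh is an established line derived from a B-cell precursor acute lymphoblastic leukaemia. The arrays were chosen by their titles, 2 for IKKβ(EE) and 2 for mock, which made 4 of the 8 arrays of the series. The other 4 arrays, 2 of cells with IRF5-4D and 2 of cells with IRF5-4D together with IKKβ(EE), shared the estimate of the spread and served in 2 further comparisons. All groups were transfected Reh cells, and mock cells had received control constructs. The submitters describe IKKβ(EE) and IRF5-4D as constitutively active, and the arrays of a group as biological duplicates, which carried the numbers 1 and 3. The promoter that drove the constructs, the share of cells that took them up, the time to harvest and the meaning of the numbers are not stated in the sources used for this comparison. RNA was measured on Affymetrix U133 Plus 2.0 oligonucleotide arrays as log2 values made with RMA, a method that corrects the background, quantile-normalizes the arrays and summarises the probes of each probe set.

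IKKβ, the product of IKBKB, is the catalytic subunit of the IκB kinase complex that serves the canonical NF-κB pathway. It marks the IκB proteins for degradation, which frees NF-κB dimers such as NFKB1 with RELA to enter the nucleus and bind DNA. In B cells the pathway is known for genes of survival, adhesion, costimulation and chemotaxis, and for inhibitors that switch the pathway off again. In the EE mutant, glutamates stand in for the activation-loop serines that upstream kinases phosphorylate.

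Expression of 19775 genes was tested, each through 1 probe set, the one that read highest on average across the 8 arrays. The 2 arrays of a group correlated at 0.997 with IKKβ(EE) and 0.994 in mock across genes, and the median gap between them was 0.131 and 0.163 on the log2 scale. The medians of all arrays lay between 5.1 and 5.14 and their lower quartiles between 3.67 and 3.73, and levels near the quartiles are not shown to lie above background. Of 11 precursor B-cell markers measured, none passed the test between the groups, and PAX5, EBF1, RAG1 and DNTT read between 12.55 and 14.15 on the 4 arrays. VPREB1, the surrogate light chain gene, lay near the lower quartile, at 4.24 and 4.19 with IKKβ(EE), against 4.06 and 4.24 in mock cells. The T and NK cell (10 genes), myeloid (8) and stromal and epithelial markers (8) had median changes of -0.05, -0.09 and -0.05, and 0 were called, beside 0.516% of all genes, so that 0 says little of lists this short. COL1A1, a collagen gene of stromal cells, differed by -0.25 on the probe set used, while another of its 5 probe sets read 8.10 and 6.58 with IKKβ(EE), against 3.73 and 3.71 in mock cells (3.62, SE 0.64, limma adjusted p = 0.0651 among all probe sets). CD3E, of T cells, read 4.35 and 4.43 with IKKβ(EE), against 4.37 and 4.53 in mock cells. The number of arrays limits the precision throughout.

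The transfected gene was examined first. Of 3 probe sets for IKBKB, 1 responded, with log2 values of 12.57 and 10.98 in IKKβ(EE) cells, against 4.80 and 4.06 in mock cells. Both IKKβ(EE) arrays lay far above both mock arrays, and the array numbered 1 was the higher in each group. The difference was 7.35 (SE 0.59), which is 163-fold, and its adjusted p was 0.00129 in a limma fit of all 41091 probe sets, 0.37% of which passed. The other IKBKB probe sets differed by 0.14 (SE 0.13) and 0.03 (SE 0.14) and did not pass. CHUK, the gene of IKKα, differed by 0.00 (SE 0.14) on its probe set, and IKBKG, the regulatory subunit NEMO, by 0.00 (SE 0.11). Neither passed the test.

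Among genes higher with IKKβ(EE), 14 of the 74 that had a RefSeq promoter window held a match to the NF-κB consensus, which is 18.9%, against 12.4% of 15384 genes tested that had a window and 10.8% of all 27305 windows. A window runs from 250 bases before to 50 bases after the annotated start in GRCh38.p14, and matches of 10 bases on either strand were counted. The element GAAANNGAAA, which interferon regulatory factors bind, was in 7 of the 74 windows, or 9.46%, against 2.94% of the windows of genes tested. In the direct test against IRF5-4D given below, the NF-κB consensus was in 9 of 70 windows (12.9%) of genes higher with IKKβ(EE). It was in 6 of 46 (13%) of genes lower, both near the 12.4% of genes tested. GAAANNGAAA was in 7.14% and 15.2% of these windows. The motifs overlapped in 0 of the 74 windows, and all of these shares are descriptions of letters and not of binding. The 8 windows below belong to named genes that were higher and hold the NF-κB consensus, ordered by the size of the change, with the match in capitals and each printed 5′ to 3′ on the strand of its gene. EBI3 lies at chr19:4229273-4229572 (plus strand), CAV1 at chr7:116524759-116525058 (plus), TNFRSF9 at chr1:7940790-7941089 (minus), SOCS1 at chr16:11256155-11256454 (minus), AFTPH-DT at chr2:64524106-64524405 (minus), IL4R at chr16:27313724-27314023 (plus), TAP1 at chr6:32853655-32853954 (minus) and NFKB1 at chr4:102501109-102501408 (plus).
EBI3: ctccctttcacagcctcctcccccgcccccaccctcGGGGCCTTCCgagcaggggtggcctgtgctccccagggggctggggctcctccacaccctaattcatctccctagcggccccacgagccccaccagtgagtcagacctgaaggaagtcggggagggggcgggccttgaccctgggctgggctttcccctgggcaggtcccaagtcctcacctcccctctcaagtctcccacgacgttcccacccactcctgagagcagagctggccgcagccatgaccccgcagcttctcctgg
CAV1: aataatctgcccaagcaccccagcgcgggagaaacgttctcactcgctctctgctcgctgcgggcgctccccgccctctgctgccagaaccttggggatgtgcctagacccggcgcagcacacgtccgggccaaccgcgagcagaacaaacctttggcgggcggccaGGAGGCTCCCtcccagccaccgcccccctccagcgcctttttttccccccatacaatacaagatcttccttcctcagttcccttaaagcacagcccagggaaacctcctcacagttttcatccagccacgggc
TNFRSF9: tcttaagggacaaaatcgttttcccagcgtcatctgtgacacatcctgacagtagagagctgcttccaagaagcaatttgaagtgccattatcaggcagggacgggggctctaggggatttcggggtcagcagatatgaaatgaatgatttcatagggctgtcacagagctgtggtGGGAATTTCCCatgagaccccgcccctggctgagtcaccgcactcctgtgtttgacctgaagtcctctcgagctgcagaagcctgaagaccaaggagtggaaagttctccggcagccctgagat
SOCS1: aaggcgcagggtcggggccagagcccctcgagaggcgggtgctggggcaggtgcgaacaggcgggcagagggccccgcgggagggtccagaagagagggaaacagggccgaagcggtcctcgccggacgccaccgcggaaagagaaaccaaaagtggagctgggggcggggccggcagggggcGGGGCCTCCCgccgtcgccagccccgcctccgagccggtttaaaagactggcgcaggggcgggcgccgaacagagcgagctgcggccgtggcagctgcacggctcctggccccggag
AFTPH-DT: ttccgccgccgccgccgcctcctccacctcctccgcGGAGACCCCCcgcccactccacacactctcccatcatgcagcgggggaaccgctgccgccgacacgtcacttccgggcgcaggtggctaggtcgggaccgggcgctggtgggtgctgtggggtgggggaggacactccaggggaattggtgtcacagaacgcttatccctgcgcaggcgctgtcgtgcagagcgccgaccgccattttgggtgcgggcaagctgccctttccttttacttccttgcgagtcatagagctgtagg
IL4R: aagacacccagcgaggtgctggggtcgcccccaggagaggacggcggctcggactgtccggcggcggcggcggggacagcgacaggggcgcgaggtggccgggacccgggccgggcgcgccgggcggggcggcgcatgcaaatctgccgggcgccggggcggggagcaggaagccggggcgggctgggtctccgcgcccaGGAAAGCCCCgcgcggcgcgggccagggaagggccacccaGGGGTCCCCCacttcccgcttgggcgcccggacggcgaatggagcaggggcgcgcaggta
TAP1: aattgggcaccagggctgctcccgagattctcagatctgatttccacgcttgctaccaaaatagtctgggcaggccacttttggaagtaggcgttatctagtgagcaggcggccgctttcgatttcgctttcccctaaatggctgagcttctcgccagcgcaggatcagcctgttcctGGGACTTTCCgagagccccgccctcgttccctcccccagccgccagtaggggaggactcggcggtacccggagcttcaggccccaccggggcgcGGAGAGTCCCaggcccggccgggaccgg
NFKB1: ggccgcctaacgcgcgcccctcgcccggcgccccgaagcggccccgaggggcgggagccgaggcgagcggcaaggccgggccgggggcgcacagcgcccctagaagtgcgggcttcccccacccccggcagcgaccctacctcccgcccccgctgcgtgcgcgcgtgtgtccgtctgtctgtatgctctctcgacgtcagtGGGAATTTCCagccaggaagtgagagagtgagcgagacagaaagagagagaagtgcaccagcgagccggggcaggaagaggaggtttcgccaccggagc
The classical forms GGGAATTTCC and GGGACTTTCC were read in 3 of these windows. GGGAATTTCC starts at position -74 relative to the annotated start of TNFRSF9 and at -49 in NFKB1, and GGGACTTTCC starts at -72 in TAP1. TNFRSF9 holds 2 overlapping matches, and IL4R and TAP1 hold 2 separate ones each.

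In limma 102 genes passed an adjusted p of 0.05 between IKKβ(EE) and mock, which is 0.516% of the genes tested, and all 102 were higher with IKKβ(EE). None was lower in this fit, although 629 genes were lower and 805 higher at an unadjusted p under 0.05, and the median change over all genes was -0.03. With a threshold of 0.1 the counts were 156 higher and 6 lower, and limma with a robust prior called 3 lower. With the array number as a block in the model, 178 were higher and 13 lower. Without mock array 3 there were 58 higher and 13 lower, and with the other arrays left out 1 at a time between 0 and 2 were lower. The changes of the 102 genes ran from 0.66 to 7.06 with a median of 1.42, and 27 were at least 4-fold, 47 were 2-fold to under 4-fold and 28 were under 2-fold. Both IKKβ(EE) arrays lay above both mock arrays for each of the 102. These genes were selected on the same arrays, so that count is a description and no separate support. In bulk RNA, more transcripts per cell and a larger share of cells with the transcript cannot be told apart. The count was 30 without IKKβ(EE) array 1, 60 without IKKβ(EE) array 3 and 66 without either array of IRF5-4D, and 56 when a gene's probe sets were averaged. Single calls were lost in the same way. Of the genes named below, CD74 kept its call in 0 of the 8 fits that left out 1 array, CYLD in 1, and BCL2A1, CCND2, CXCL8, HLA-DRA, NFKB1, TAPBP, TMEM120A and TYK2 in 2.

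The largest rise was that of HLA-DQA1, the alpha chain of the MHC class II molecule HLA-DQ. Its log2 values were 11.64 and 11.10 with IKKβ(EE), against 4.90 and 3.73 in mock cells. The value on mock array 3 lay at the lower quartile of the arrays and that on mock array 1 near their median, and the groups were far apart. The difference was 7.06 (SE 0.41) and corresponded to 133-fold (limma adjusted p = 0.000211). This rests on 1 of its 3 probe sets, and the mean over them differed by 2.36. The others differed by 0.03 and -0.01. Their means lay under the lower quartile, at 3.45 and 2.83 with IKKβ(EE), against 3.42 and 2.84 in mock cells. RNF144B, an E3 ubiquitin ligase, read 10.35 and 9.81 with IKKβ(EE), against 4.82 and 4.59 in mock cells. It rose 41.6-fold (log2 5.38, SE 0.23, limma adjusted p = 3.85e-05), and each of its 4 probe sets was higher, the lowest by 0.81. LAMP3, a lysosomal membrane protein of mature dendritic cells, read 9.12 and 8.52 with IKKβ(EE), against 4.07 and 4.50 in mock cells. This was a rise of 23.3-fold (log2 4.54, SE 0.38, limma adjusted p = 0.00145).

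Further large rises were seen in genes of other kinds, of which PLAU was also on the list of NF-κB targets. SGK1, a serum- and glucocorticoid-regulated kinase, read 12.57 and 11.69 with IKKβ(EE), against 9.56 and 8.47 in mock cells, and rose by 3.11 (SE 0.39). SRGN, the core protein of a granule proteoglycan, rose by 2.44 (SE 0.30), although the lowest of its 3 probe sets differed by -0.07. TNFAIP6, a secreted hyaluronan-binding protein, read 6.99 and 5.67 with IKKβ(EE), against 3.88 and 3.86 in mock cells. Its rise of 2.46 (SE 0.39) was 1.80 without IKKβ(EE) array 1 and 3.12 without IKKβ(EE) array 3. PLAU, the urokinase plasminogen activator, rose by 2.59 (SE 0.27), INHBA, a subunit of activin A, by 2.13 (SE 0.15), and CAV1, the main protein of caveolae, by 2.13 (SE 0.26). KREMEN2, a receptor of Dickkopf proteins, rose by 1.98 (SE 0.20) and TMEM120A by 2.14 (SE 0.31). The long non-coding RNAs MROCKI, LINC01619, LINC00158 and AFTPH-DT rose by 2.61, 2.48, 2.14 and 1.91, and MROCKI read 6.86 and 6.38 with IKKβ(EE), against 4.06 and 3.96 in mock cells.

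**Figure D1:**
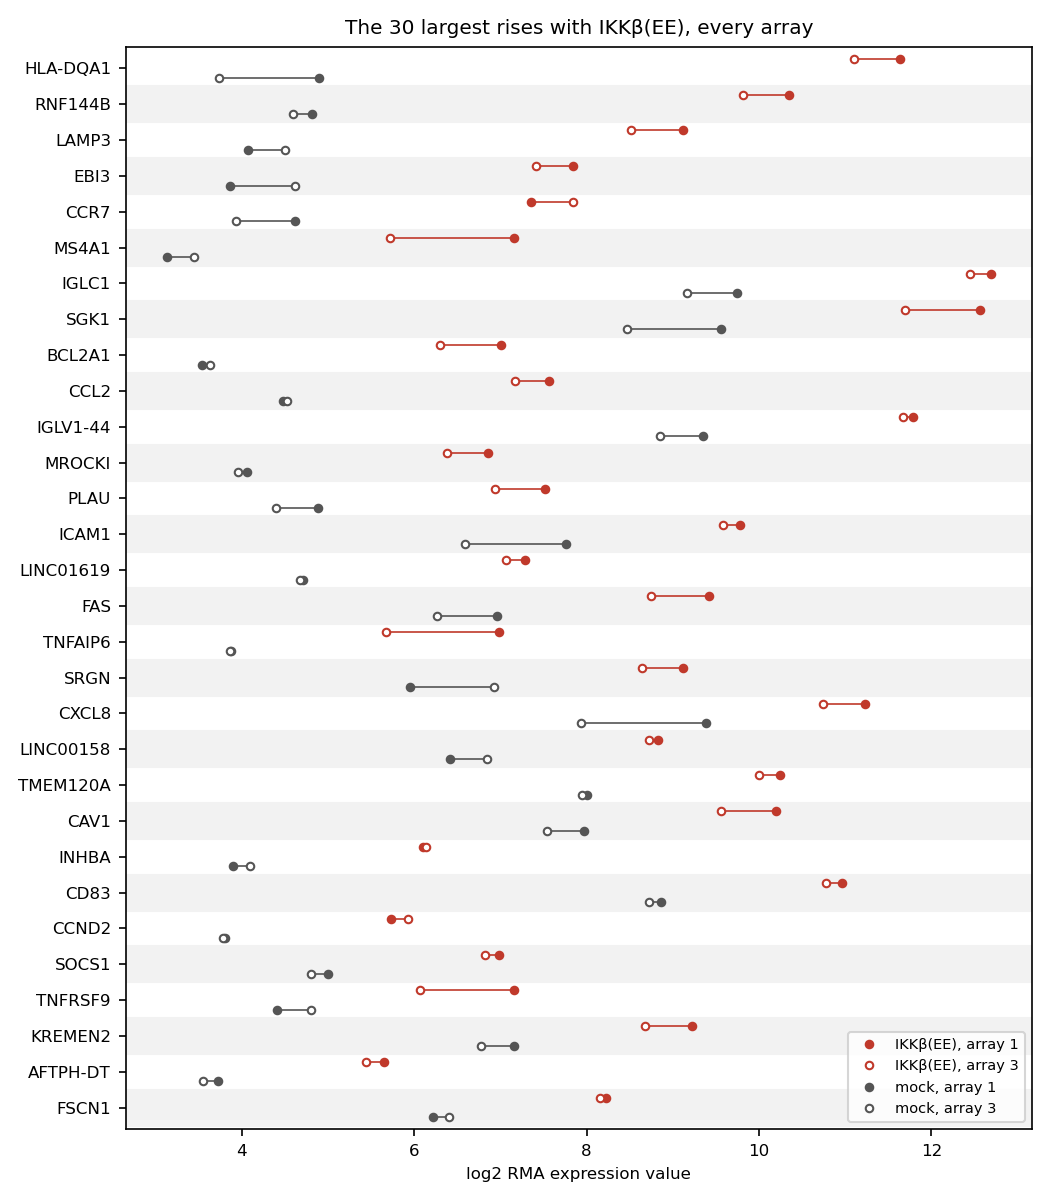
Log2 RMA values (horizontal axis) of the 30 genes with the largest rises, 1 row per gene, with IKKβ(EE) above mock in each row and the 2 arrays of a group as filled (number 1) and open (number 3) points joined by a line. The genes were chosen among called genes whose groups do not overlap, so in every row both IKKβ(EE) points lie right of both mock points. The rows run from HLA-DQA1 with a difference of 7.06 to FSCN1 with 1.88.

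Of 5 genes of NF-κB subunits, 1 rose. NFKB1, which gives p105 and p50, read 10.21 and 9.95 with IKKβ(EE), against 9.26 and 9.08 in mock cells. The difference of 0.91 (SE 0.13) corresponded to 1.87-fold (limma adjusted p = 0.0216). NFKB2, the gene of p100 and p52, read 7.82 and 7.10 with IKKβ(EE), against 6.70 and 5.37 in mock cells (1.43, SE 0.38, adjusted p = 0.292). RELB differed by 1.18 (SE 0.37, adjusted p = 0.434), REL by 0.63 (SE 0.20) and RELA by -0.09 (SE 0.13), and none of the 4 passed. For NFKB2 and RELB the 2 mock arrays were 1.32 apart, and the groups did not overlap. Here as in the lists below, the median change (0.91) is set beside the -0.03 over all genes, and the count called beside 0.516% of all genes. Of all 19775 genes, 8653 had a difference above 0. The lists were chosen with earlier results of these data known.

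All 13 measured inhibitors and feedback genes of the pathway had a difference above 0, with a median of 0.53, and 1 rose. CYLD, a deubiquitinase that turns off signalling to the IKK complex, read 9.59 and 8.97 with IKKβ(EE), against 8.12 and 7.83 in mock cells. It rose by 1.31 (SE 0.22, limma adjusted p = 0.0399), a call kept in 1 of the 8 fits that left out 1 array (0.99 to 1.62). It averaged 0.87 over its 7 probe sets (adjusted p = 0.19). NFKBIA, which encodes IκBα, read 12.99 and 12.36 with IKKβ(EE), against 12.12 and 11.45 in mock cells (0.89, SE 0.28, adjusted p = 0.425). The 2 arrays were 0.63 apart with IKKβ(EE) and 0.67 apart in mock. NFKBIZ differed by 1.57 (SE 0.28, adjusted p = 0.0576), TNIP2 by 0.93 (SE 0.18, adjusted p = 0.0728) and TNFAIP3, the deubiquitinating enzyme A20, by 0.50 (SE 0.21), without passing.

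Of 21 genes of the IKK complex and its adaptors, 1 rose, and the median change was 0.07. It was IRAK2, a kinase of the Toll-like and interleukin-1 receptor pathway, which read 7.74 and 7.70 with IKKβ(EE), against 6.02 and 5.67 in mock cells (1.87, SE 0.25, limma adjusted p = 0.014). Its lowest probe set differed by 0.01. TRAF1, an adaptor of TNF receptors, differed by 1.39 (SE 0.30, adjusted p = 0.129), TRAF3 by 0.61 (SE 0.13, adjusted p = 0.119) and TAB3 by 0.54 (SE 0.14). TANK, a TRAF-binding adaptor outside the list, was among the 102 genes, at 1.25.

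**Figure D2:**
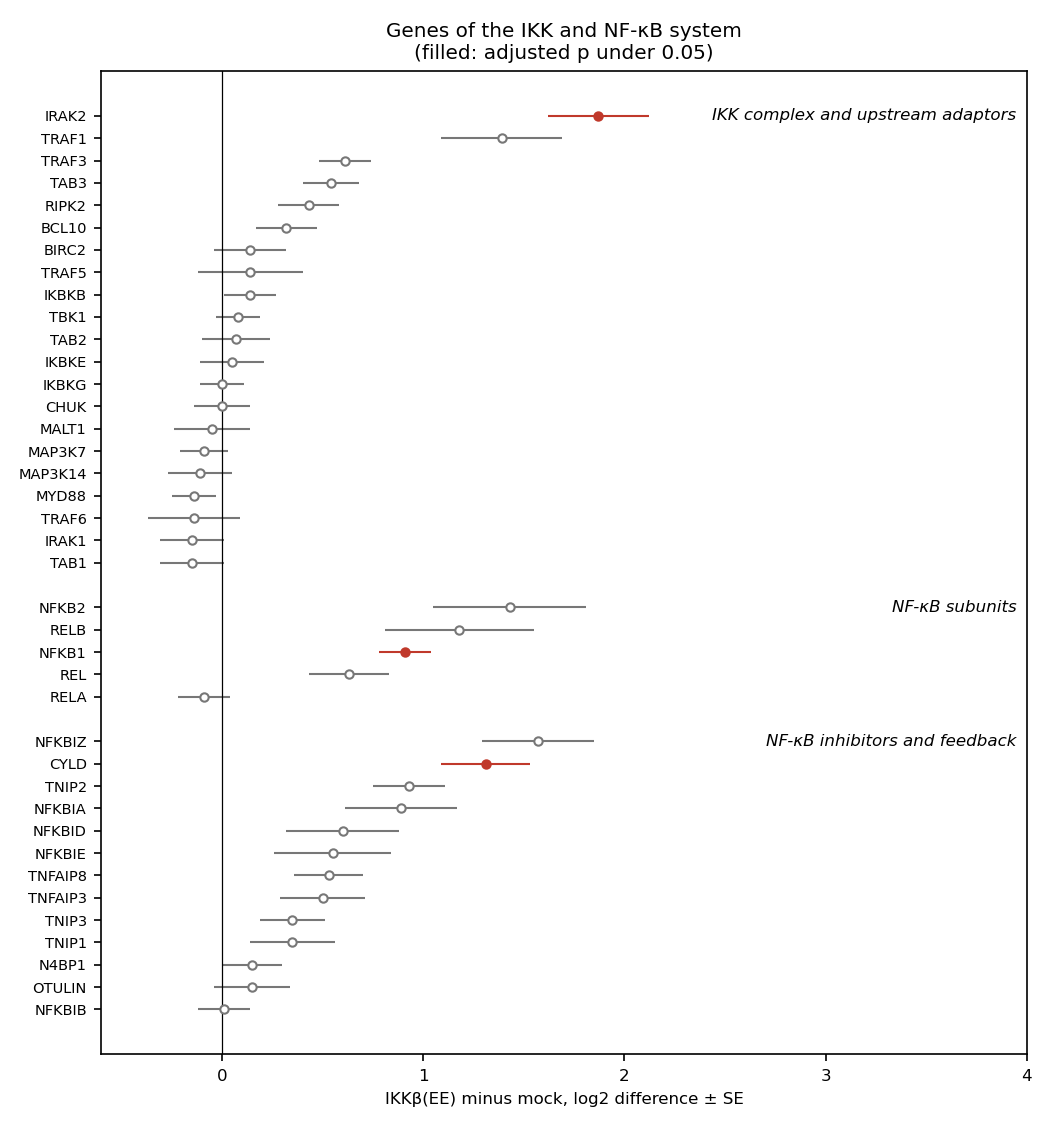
Log2 difference between IKKβ(EE) and mock with its SE (horizontal axis) for the measured genes of the IKK complex and upstream adaptors, the NF-κB subunits and the inhibitors and feedback genes, 1 row per gene. Filled points, at IRAK2, NFKB1 and CYLD, passed the test. IKBKB is shown on the probe set used for the gene (0.14), not the one that responded to the construct.

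Known NF-κB targets held 11 called members of 33 measured, with a median change of 1.05 and 29 members above 0. With a gene's probe sets averaged, 9 were called and the median was 0.58. BCL2A1, an anti-apoptotic relative of BCL2, read 7.01 and 6.30 with IKKβ(EE), against 3.54 and 3.63 in mock cells. The mock values lay below the lower quartile, and the rise was 3.07 (SE 0.46, limma adjusted p = 0.024). ICAM1, the adhesion receptor for leukocyte integrins, read 9.78 and 9.58 with IKKβ(EE), against 7.76 and 6.59 in mock cells. It rose by 2.51 (SE 0.34). All of its 3 probe sets were higher, by at least 1.45, and 2 of them passed in the fit of all probe sets. CD69 (1.44, SE 0.18), CD83 (2.08, SE 0.19), EBI3 (3.38, SE 0.34) and CCR7 (3.32, SE 0.38) rose as well. The count of 11 was 4 without IKKβ(EE) array 1 and at most 13 with another array left out.

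Of 27 chemokines 2 rose, which is 7.41% beside 0.516% of all genes, with a median over the list of 0.09. CCL2, which attracts monocytes, read 7.56 and 7.17 with IKKβ(EE), against 4.48 and 4.52 in mock cells, and rose by 2.87 (SE 0.16, limma adjusted p = 0.000202). CXCL8, which attracts neutrophils, read 11.23 and 10.74 with IKKβ(EE), against 9.39 and 7.93 in mock cells. Its rise of 2.33 (SE 0.39) was near the threshold (limma adjusted p = 0.0418). The call was kept in 2 of the 8 fits that left out 1 array, those without a mock array (1.6 and 3.06), and was lost with probe sets averaged (2.40, adjusted p = 0.0825). CCL4 (2.86, SE 0.57, adjusted p = 0.0897), CXCL10 (2.11, SE 0.40, adjusted p = 0.0704) and CCL5 (1.85, SE 0.34, adjusted p = 0.0594) did not pass, with arrays that did not overlap. CCR7, the receptor that directs lymphocytes to lymph nodes, was the called member of 19 chemokine receptors. It read 7.35 and 7.84 with IKKβ(EE), against 4.62 and 3.93 in mock cells, 9.99-fold higher (limma adjusted p = 0.00563). ACKR3, an atypical receptor of CXCL12, had the lowest difference of that list, at -0.83 (SE 0.19, adjusted p = 0.153).

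Of 34 interleukins and receptors 3 rose, with a median of 0.06. EBI3, the shared subunit of the cytokines IL27 and IL35, read 7.84 and 7.41 with IKKβ(EE), against 3.86 and 4.62 in mock cells, 10.4-fold higher. IL4R, the receptor chain for IL4 and IL13, rose by 1.27 (SE 0.13, limma adjusted p = 0.00343), with values of 6.53 and 6.71 with IKKβ(EE), against 5.39 and 5.32 in mock cells. IL15, a growth factor of T and NK cells, rose by 0.99 (SE 0.13). IL21R differed by 2.31 (SE 0.50, adjusted p = 0.129), and its mock arrays read 6.62 and 4.99.

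Of 31 TNF superfamily ligands and receptors 4 rose, with a median of 0.16. CD70, the ligand of CD27, read 11.29 and 11.02 with IKKβ(EE), against 9.40 and 9.26 in mock cells, and rose by 1.82 (SE 0.16, limma adjusted p = 0.00165). CD40, the receptor by which T cells activate B cells, read 9.72 and 9.32 with IKKβ(EE), against 7.94 and 7.63 in mock cells, and rose by 1.74 (SE 0.23), the lowest value among its 4 probe sets. TNFRSF9, the costimulatory receptor 4-1BB, rose by 2.01 (SE 0.29), although its lowest probe set differed by 0.12 and the mean over its probe sets by 0.82. Its ligand TNFSF9 differed by 2.17 (SE 0.40, adjusted p = 0.0656) without passing. FAS, the death receptor, read 9.42 and 8.75 with IKKβ(EE), against 6.96 and 6.27 in mock cells, and rose by 2.47 (SE 0.35, limma adjusted p = 0.0179).

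Costimulation, adhesion and dendritic-cell maturation genes held 7 called members of 29, with a median of 0.51. Beside LAMP3, ICAM1, CD70, CD40 and CD69 they were CD83 and FSCN1. CD83, a surface marker of mature dendritic cells, read 10.96 and 10.78 with IKKβ(EE), against 8.86 and 8.73 in mock cells (2.08, SE 0.19, limma adjusted p = 0.00198). FSCN1, the actin-bundling protein fascin, read 8.22 and 8.16 with IKKβ(EE), against 6.22 and 6.40 in mock cells (1.88, SE 0.17, limma adjusted p = 0.00188). The 2 arrays of each group lay within 0.18 of each other for both genes. CD86 differed by 1.01 (SE 0.18, adjusted p = 0.0505), ICAM3 by 1.06 (SE 0.20, adjusted p = 0.0715) and CD80 by 0.65 (SE 0.15, adjusted p = 0.175). The count of 7 was 4 without IKKβ(EE) array 1.

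MHC class II genes held 6 called members of 15, with a median of 0.73, and 14 of the 15 were above 0. The class II molecules present peptides to CD4 T cells. HLA-DQB1, the partner chain of HLA-DQA1, read 11.69 and 11.49 with IKKβ(EE), against 10.10 and 9.99 in mock cells, and rose by 1.55 (SE 0.14, limma adjusted p = 0.00188). The ending _x_at marks probes that may bind several transcripts. On the highest-reading of its probe sets without that ending, HLA-DQB1 differed by 0.33 and did not pass. HLA-DMB and HLA-DOA, which act on peptide loading, rose by 1.21 (SE 0.12) and 0.87 (SE 0.11). HLA-DMB read 11.29 and 11.18 with IKKβ(EE), against 10.13 and 9.92 in mock cells. HLA-DOA averaged 0.49 over its 5 probe sets (adjusted p = 0.118). HLA-DRA rose by 0.78 (SE 0.12), a call kept in 2 of the 8 fits that left out 1 array. CD74, the invariant chain, rose by 0.73 (SE 0.12), a call kept in 0 of the 8, and averaged 0.44 over its 3 probe sets (adjusted p = 0.183). HLA-DPB1 (0.90, adjusted p = 0.0728), HLA-DMA (0.73, adjusted p = 0.0737), HLA-DRB1 (0.69, adjusted p = 0.0506) and HLA-DPA1 (0.56, adjusted p = 0.0845) did not pass.

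The count of 6 class II genes was between 2 and 5 when 1 array was left out, and lowest without IKKβ(EE) array 1. CIITA, the class II transactivator and master regulator of these genes, read 8.45 and 8.03 with IKKβ(EE), against 8.67 and 8.30 in mock cells. The arrays overlapped, and the difference of -0.24 did not pass. Apart from HLA-DQA1, the called class II genes of the list read above 9 in mock cells already. Outside the list, HLA-DPB2, a class II pseudogene chosen after its values were seen, read 5.61 and 5.61 with IKKβ(EE), against 3.88 and 3.91 in mock cells (1.71, SE 0.16, limma adjusted p = 0.00215).

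Of 18 genes of MHC class I and antigen processing 2 rose, with a median of 0.25. TAP1, a subunit of the peptide transporter, read 10.69 and 10.50 with IKKβ(EE), against 9.44 and 9.56 in mock cells (1.09, SE 0.13, limma adjusted p = 0.00923). TAPBP, or tapasin, which joins the transporter to class I molecules, rose by 0.74 (SE 0.12, limma adjusted p = 0.0397). HLA-F differed by 0.61 (SE 0.17), TAP2 by 0.49 (SE 0.14), HLA-G by 0.44 (SE 0.18) and B2M by 0.17 (SE 0.11), and none of these passed. The 2 calls were lost without IKKβ(EE) array 1, where TAP1 differed by 1.0 and TAPBP by 0.72.

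**Figure D3:**
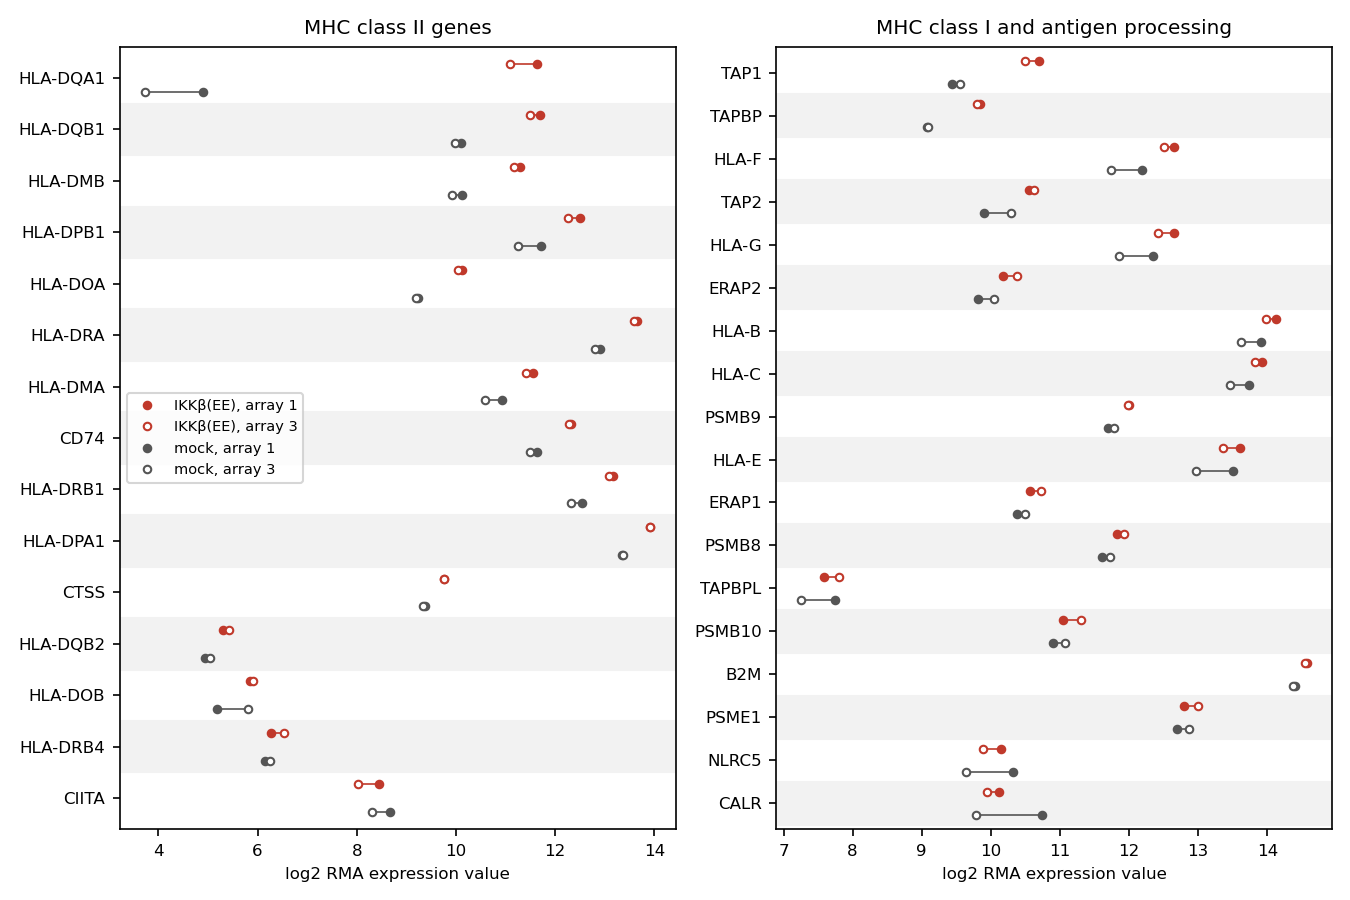
Log2 RMA values (horizontal axes) of the measured MHC class II genes (left) and class I and antigen processing genes (right), IKKβ(EE) above mock in each row, filled points for arrays numbered 1 and open points for arrays numbered 3. HLA-DQA1 stands apart with mock values of 4.90 and 3.73, and CIITA is the class II gene whose difference lies below 0.

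MS4A1, the gene of the surface protein CD20, was the called member of 34 B-cell identity genes (median 0.02). It read 7.16 and 5.72 with IKKβ(EE), against 3.13 and 3.44 in mock cells, where the mean lay under the lower quartile. It rose by 3.15 (SE 0.46, limma adjusted p = 0.0216). The rise was 2.43 without IKKβ(EE) array 1, where the call was lost, as in other fits that left out 1 array. As the mean of its 4 probe sets it was 1.66 and did not pass (limma adjusted p = 0.183). Of 24 precursor B-cell genes and 14 regulators of plasma cells and germinal centres, 0 passed, with medians of -0.03 and 0.01. FLT3, a receptor kinase of progenitors, read 8.98 and 8.82 with IKKβ(EE), against 9.59 and 9.39 in mock cells (-0.59, SE 0.13, adjusted p = 0.161). BCL6 differed by -0.34 (SE 0.15) and IKZF3 by 0.74 (SE 0.14, adjusted p = 0.0672).

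The immunoglobulin lambda genes IGLC1 and IGLV1-44 were called on probe sets ending in _x_at. IGLC1 read 12.69 and 12.45 with IKKβ(EE), against 9.74 and 9.17 in mock cells, 8.69-fold higher, and IGLV1-44 was 6.19-fold higher. On the highest-reading probe set without that ending IGLC1 differed by 0.74 and IGLV1-44 by -0.16, and neither passed. The other IGLC1 probe sets without the ending differed by between -0.22 and 0.08. Of those with it, another rose by 3.70 (SE 0.22), and others differed by 0.29 and -0.21. Which lambda transcripts changed cannot be read from these probe sets.

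Genes that protect from death and genes that promote it were both among those called. Of 15 genes of the BCL2 family and survival 2 rose, BCL2A1 and BCL2L11, the gene of the death-promoting protein BIM. BCL2L11 read 9.39 and 9.09 with IKKβ(EE), against 8.24 and 8.30 in mock cells (0.97, SE 0.16, limma adjusted p = 0.0371), and averaged 0.61 over its 7 probe sets. FAS was the called member of 11 genes of death receptor signalling. CFLAR, the inhibitor of caspase-8 activation, differed by 1.05 (SE 0.24, adjusted p = 0.17), and CASP8 by 0.36 (SE 0.12). Of 17 p53 targets 2 rose, FAS and TP53INP1, and the median was 0.31. TP53INP1 read 9.85 and 9.92 with IKKβ(EE), against 8.54 and 8.37 in mock cells (1.43, SE 0.18, limma adjusted p = 0.00923). It averaged 0.48 over its 3 probe sets (adjusted p = 0.188), the lowest of which differed by -0.03. CDKN1A, the cell cycle inhibitor p21, read 0.98 higher (SE 0.19, adjusted p = 0.0744) and SESN1 0.86 higher (SE 0.16, adjusted p = 0.0744), and neither passed.

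Of 21 genes of JAK-STAT signalling 2 rose. SOCS1, a feedback inhibitor of cytokine receptors, read 6.99 and 6.82 with IKKβ(EE), against 5.0 and 4.80 in mock cells, and rose by 2.01 (SE 0.26, limma adjusted p = 0.011), whereas its 4 probe sets averaged 0.61. The kinase gene TYK2 rose by 0.78 (SE 0.12). NR4A3, an orphan nuclear receptor, was the called member of 24 AP-1 and immediate early genes. It read 7.57 and 7.22 with IKKβ(EE), against 5.81 and 5.64 in mock cells (1.67, SE 0.15, limma adjusted p = 0.00188), and its lowest probe set differed by -0.11. CCND2, the cyclin D2 gene, was the called member of 21 D cyclins and G1 regulators, with 5.73 and 5.93 with IKKβ(EE), against 3.80 and 3.78 in mock cells (2.04, SE 0.30, limma adjusted p = 0.0216). It averaged 0.69 over its 4 probe sets (adjusted p = 0.593), and the call was kept in 2 of the 8 fits that left out 1 array. Of 22 replication and mitosis genes 0 passed, with a median of -0.11, and MKI67 differed by -0.22 (SE 0.14) and MCM2 by -0.29 (SE 0.12).

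Interferon-stimulated genes had 0 called members of 44 in limma, beside 0.516% of all genes, so that 0 says little of a list this short. With the array number as a block, 4 were called. The median change of the list was 0.22. Of the 44, 40 were above 0 and 12 had an unadjusted p under 0.05, against 8653 and 1434 of all 19775 genes. IFIH1, a sensor of double-stranded RNA, had the largest difference of the list and read 10.33 and 9.92 with IKKβ(EE), against 9.17 and 8.56 in mock cells (1.26, SE 0.24, adjusted p = 0.074). IFIT3 differed by 0.74 (SE 0.14, adjusted p = 0.0807) and GBP4 by 0.64 (SE 0.12, adjusted p = 0.0792). Of 8 interferon regulatory factors 0 passed. IRF4 differed by 0.85 (SE 0.33), IRF8 by 0.66 (SE 0.14), IRF1 by 0.31 (SE 0.18) and IRF9 by 0.27 (SE 0.18). The MAP kinase phosphatases (11 genes, median 0.04), the stress and heat shock genes (17, median -0.19) and the reference genes (11, median 0.03) had 0 called members as well.

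**Figure D4:**
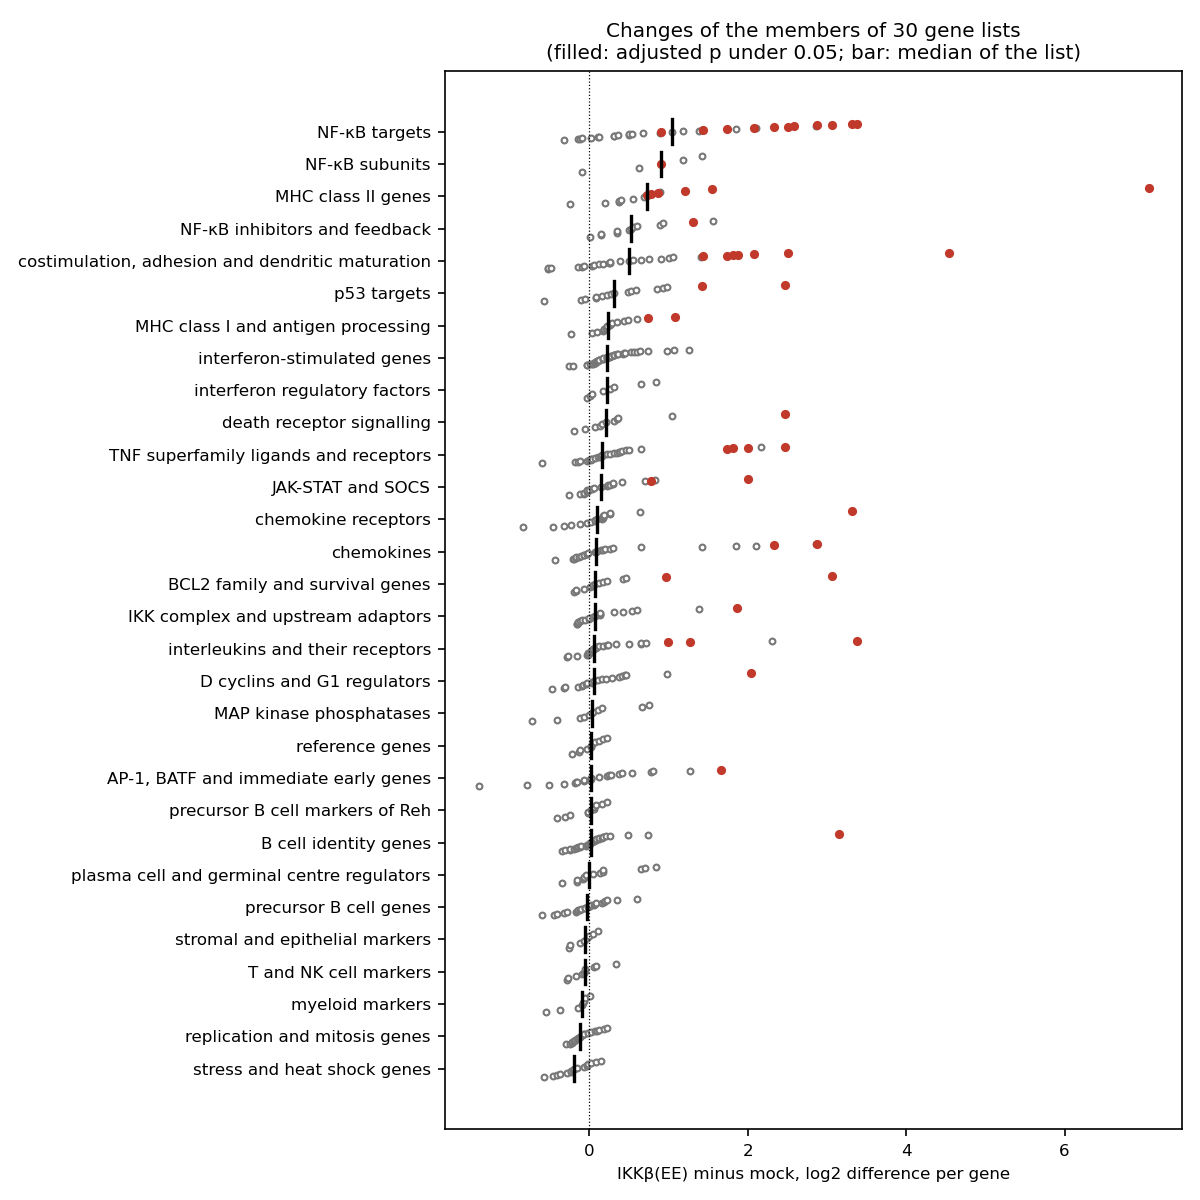
Log2 difference between IKKβ(EE) and mock (horizontal axis) for every measured member of 30 gene lists, 1 row per list, ordered by the median (black bar), with filled points for members that passed the test. NF-κB targets are at the top with a median of 1.05 and 11 filled points of 33, and stress and heat shock genes at the bottom with a median of -0.19 and none.

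Since no gene was called lower in the main fit, the largest differences below 0 are given as values. ADGRE2, an adhesion G protein-coupled receptor of myeloid cells, read 5.31 and 5.10 with IKKβ(EE), against 8.23 and 6.33 in mock cells (-2.08, SE 0.60, adjusted p = 0.36). JPH2 read 5.39 and 5.48 with IKKβ(EE), against 7.66 and 6.49 in mock cells (-1.64, SE 0.34, adjusted p = 0.109). In both genes, and in INSC (-1.42), GPR17 (-1.40) and LOC441179 (-1.44), mock array 1 was the highest of the 4 arrays. SORBS2 came closest to the threshold, with 6.08 and 6.48 with IKKβ(EE), against 7.32 and 7.35 in mock cells (-1.06, SE 0.19, adjusted p = 0.0576).

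The 102 genes were also described by their annotation and their probe sets. Protein-coding genes made 90 of them, 0.545% of those tested, and long non-coding RNAs made 7, or 0.263%. Neighbouring protein-coding genes at most 3 places apart in RefSeq order formed 5 pairs. FAS and ACTA2, the smooth muscle actin gene, overlap in the annotation, and the other 4 pairs joined TAP1, HLA-DMB, HLA-DOA, HLA-DRA, HLA-DQA1 and HLA-DQB1 in the MHC region. ACTA2 read 8.16 and 7.76 with IKKβ(EE), against 6.78 and 6.62 in mock cells, and rose by 1.26 (SE 0.15). Of the 102 genes 67 had more than 1 probe set, and in 20 of these the lowest probe set lay below 0. In 8 genes the probe set used ended in _x_at, and in 7 the mock mean lay under the lower quartile of the arrays.

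Arrays 1 and 3 differed in the same gene groups within IKKβ(EE) and within mock. NF-κB targets were higher on array 1 in 30 of 33 members with IKKβ(EE) and in 27 of 33 in mock, with median gaps of 0.39 and 0.34. The immediate early genes were higher on array 1 in 22 of 24 and in 20 of 24 members, with median gaps of 0.49 and 0.48. Replication and mitosis genes were higher on array 1 in 4 of 22 and in 1 of 22 members. Over all 19775 genes array 1 was the higher in 9644 with IKKβ(EE) and 9663 in mock. Stress and heat shock genes were higher on array 1 in 11 of 17 members in each group, with median gaps of 0.12 and 0.15. DDIT3 and TRIB3 of that list, chosen after their values were seen, had larger gaps. DDIT3 read 11.60 and 9.56 with IKKβ(EE), against 11.58 and 10.05 in mock cells, and TRIB3 read 11.42 and 10.01 with IKKβ(EE), against 12.44 and 9.81 in mock cells. Each group held 1 array of each number. A gap of equal size in both groups therefore leaves the difference of their means unchanged and widens its SE. The part of a gap that differed between the groups was not tested.

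Where IKKβ(EE) acts differently from the other single construct was examined by a direct test between IKKβ(EE) and IRF5-4D. Its differences do not use the mock arrays, which enter only through the shared estimate of the spread. IRF5, an interferon regulatory factor, acts downstream of Toll-like receptors. In limma 151 genes passed, or 0.764%, of which 89 (0.45%) were higher and 62 (0.314%) lower with IKKβ(EE). Of the 102 genes higher than in mock, 62 were also higher than with IRF5-4D, 1 was lower, NIBAN3, and 39 did not pass in that test. The direct test and the comparison with mock share the IKKβ(EE) arrays.

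The largest differences in favour of IKKβ(EE) were those of RNF144B (5.07), LAMP3 (4.68), HLA-DQA1 (4.36), BCL2A1 (3.26), EBI3 (3.23) and FAS (3.16). LAMP3 read 9.12 and 8.52 with IKKβ(EE), against 4.23 and 4.05 with IRF5-4D. FAS read 9.42 and 8.75 with IKKβ(EE), against 5.91 and 5.95 with IRF5-4D. CCL2 read 7.56 and 7.17 with IKKβ(EE), against 7.38 and 7.41 with IRF5-4D (-0.03, limma adjusted p = 0.993). It did not pass between the constructs, nor did CD40 (0.07, adjusted p = 0.986), CCR7 (0.45, adjusted p = 0.904) or PLAU (0.37, adjusted p = 0.88), which does not show that they were equal.

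The genes lowest with IKKβ(EE) relative to IRF5-4D were RIN2 (-4.55), CCL4 (-4.48), IL1RN (-3.56), CCL8 (-3.40), FRMD3 (-3.26) and DKK1 (-3.09). RIN2, a guanine nucleotide exchange factor for Rab5, read 3.98 and 3.72 with IKKβ(EE), against 8.60 and 8.21 with IRF5-4D. CCL4, a chemokine for monocytes and T cells, read 9.01 and 7.48 with IKKβ(EE), against 12.85 and 12.61 with IRF5-4D. IL1RN, the natural antagonist of the interleukin-1 receptor, read 4.19 and 3.97 with IKKβ(EE), against 7.93 and 7.33 with IRF5-4D. Apart from CCL4, the differences of these 6 genes between IKKβ(EE) and mock lay between -0.03 and 0.06.

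The change that IKKβ(EE) brought was then compared between cells with and without IRF5-4D, as the interaction in the same limma fit. It passed for 25 genes, with a change that lay higher in the presence of IRF5-4D in 19 (0.0961% of genes) and lower in 6 (0.0303%). The count ran from 0 to 80 when 1 array was left out. Among the 102 genes it passed for 5, RNF144B, IGLC1, IGLV1-44, INHBA and AFTPH-DT, all with a smaller change in the presence of IRF5-4D. The interaction lay below 0 in 84 of the 102. Since the 102 genes were selected on the change without IRF5-4D, that count is a description. Their median change from mock was 0.93 in the combination and 0.21 with IRF5-4D alone, against the 1.42 with IKKβ(EE) alone on which they were selected. Between the combination and IKKβ(EE) alone, 12 of the 102 were higher and 27 lower in the combination, beside 1.37% and 0.349% of all genes. This comparison shares the IKKβ(EE) arrays on which the 102 were selected, so these counts are descriptions too. In the combination the IKBKB probe set that responded to the construct read 11.11 and 9.33, against 12.57 and 10.98 with IKKβ(EE) alone. The difference of -1.56 (SE 0.59) did not pass in the fit of all probe sets (limma adjusted p = 0.354). Its part in the smaller changes was not tested.

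RNF144B read 7.55 and 6.92 in the combination, against 5.07 and 4.96 with IRF5-4D, a change of 2.22 in place of the 5.38 without IRF5-4D. AFTPH-DT read 3.50 and 3.93 in the combination, against 3.50 and 3.79 with IRF5-4D, a change of 0.07 in place of 1.91. In the other direction stood genes that IKKβ(EE) alone left near their mock level. HSFX3 read 3.51 and 3.69 with IKKβ(EE), against 3.49 and 3.49 in mock cells, and 9.55 and 8.57 in the combination, against 4.07 and 3.71 with IRF5-4D. GPR84, a receptor of medium-chain fatty acids, and DUSP4, a MAP kinase phosphatase, differed by 3.08 and 2.95 in the presence of IRF5-4D, against -0.01 and -0.12 without it. Of the 8 fits that left out 1 array, the interaction passed in 7 for HSFX3, 5 for RNF144B, 4 for GPR84, 2 for DUSP4 and 1 for AFTPH-DT.

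**Figure D5:**
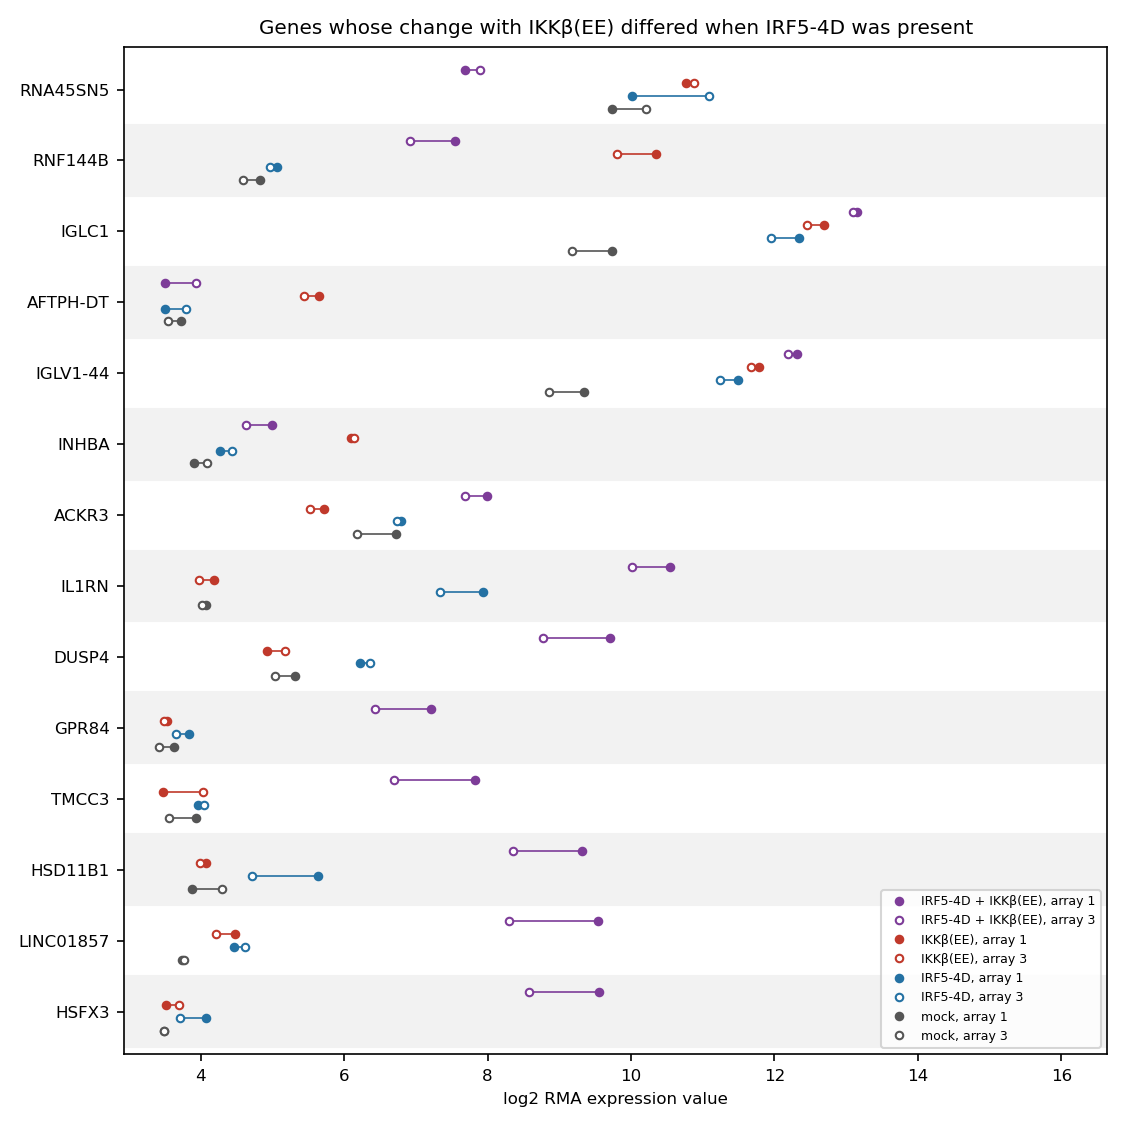
Log2 RMA values (horizontal axis) of 14 genes with called interactions, 1 row per gene, with the combination, IKKβ(EE), IRF5-4D and mock from top to bottom in each row and points for arrays numbered 1 (filled) and 3 (open). RNF144B, AFTPH-DT and INHBA are highest with IKKβ(EE) alone, and HSFX3, LINC01857, HSD11B1, TMCC3, GPR84, DUSP4, IL1RN and ACKR3 are highest in the combination.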

How the data were processed

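The authors deposited log2 values made with RMA, per the submitters' processing notes, and its version and chip definition are not stated in the sources used. Of 54675 probe sets, the 62 control probe sets and 13522 without exactly 1 symbol in the platform annotation (1801 with several, 11721 with none listed) were left out, and 41091 were kept. Entrez identifiers of 41037 were found in RefSeq and 0 symbols changed. For each of 19775 genes the probe set that read highest on average was used, with no filter on level. Means of the 4 groups were fitted to all 8 arrays in limma 3.58.1 (R 4.3.3, lmFit and eBayes, 4 residual degrees of freedom), two-sided, with Benjamini-Hochberg adjustment over all genes and a threshold of 0.05. The script was tested on simulated data.

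Named were the probe sets of IKBKB, CHUK and IKBKG, the 30 largest rises, the 6 largest falls at an unadjusted p under 0.01 (since none was called), up to 8 called and 4 other members of each of 30 gene lists, the 6 largest differences in each direction from IRF5-4D and in the interaction, and the promoters of at most 8 named called genes with the NF-κB consensus. The members and lists were chosen with earlier results of these data known. Promoter sequences are those of RefSeq (GRCh38.p14), where a window was found. The alternatives were other probe set choices, normalizations, limma settings, thresholds, the replicate block, fits of the compared groups alone and leaving out each array.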

Additional observations from a re-analysis of the deposited data

Results flagged for a closer look

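In 14 named genes the change with IKKβ(EE) differed between cells with and without IRF5-4D by the limma interaction test, and the values below are the interaction, which is the change with IRF5-4D minus the change without it, on the log2 scale. It lay below 0 in 6 genes. The interaction was -3.62 (SE 0.43) for RNA45SN5, whose probe set is annotated to a ribosomal RNA precursor, with changes of -2.77 in the presence of IRF5-4D and 0.85 without it. It was -3.16 (SE 0.32) for RNF144B, with 2.22 and 5.38, and -2.14 (SE 0.29) for IGLC1, with 0.98 and 3.12. AFTPH-DT had -1.84 (SE 0.24), IGLV1-44 -1.74 (SE 0.25) and INHBA -1.66 (SE 0.21), the last with a change of 0.46 in the presence of IRF5-4D and 2.13 without it.

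It lay above 0 in the other 8 genes. ACKR3 had an interaction of 1.90 (SE 0.26), with changes of 1.07 in the presence of IRF5-4D and -0.83 without it, and IL1RN had 2.62 (SE 0.32), with 2.65 and 0.03. DUSP4 had 3.07 (SE 0.37), GPR84 3.09 (SE 0.31) and TMCC3 3.26 (SE 0.47), with changes of 2.95, 3.08 and 3.26 in the presence of IRF5-4D and between -0.12 and 0.00 without it. HSD11B1, an enzyme that regenerates cortisol, had 3.72 (SE 0.49), the non-coding RNA LINC01857 had 3.79 (SE 0.45) and HSFX3 had 5.06 (SE 0.38). The limma adjusted p of these 14 ran from 0.00576 for HSFX3 to 0.0492 for TMCC3. Each of these calls was lost in at least 1 of the 8 fits that left out 1 array. Of these fits, the interaction passed in 7 for HSFX3, 5 for RNF144B, 4 for GPR84, 3 for RNA45SN5, 1 each for AFTPH-DT and IGLV1-44, and 2 for each of the other 8 genes. Groups of 2 arrays were too small to look for single arrays that stand apart.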

How the results depend on the processing

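The 102 genes higher with IKKβ(EE) than in mock cells were counted again under each alternative. Averaging a gene's probe sets gave 56 (51 shared with the 102), a threshold of 0.1 gave 162, and leaving out 1 array gave 30 to 116, lowest without IKKβ(EE) array 1 and with 13 of 71 lower without mock array 3. Fits of the compared groups alone gave 70, and the other normalizations, probe set rules and limma settings gave 77 to 115 genes. With every probe set tested on its own, 152 of 41091 probe sets passed. That count, and the 244 given next for every probe set, are numbers of probe sets and not of genes. The 151 genes between IKKβ(EE) and IRF5-4D were 244 with every probe set and 95 among genes above the median level, and 42 to 182 with 1 array left out. The 25 interactions were 9 with probe sets averaged, 0 among genes above the median level and 40 at a threshold of 0.1, and 0 to 80 with 1 array left out, 0 without IRF5-4D array 3 and 80 without combination array 3. With the replicate block the counts were 191 (178 higher and 13 lower), 225 and 56, and calls were 17 in place of 11 for NF-κB targets, 9 in place of 6 for MHC class II genes, 5 in place of 2 for chemokines, 4 in place of 1 for NF-κB inhibitors and 4 in place of 0 for interferon-stimulated genes. Deviations of same-numbered arrays from their group means correlated at 0.343 between IKKβ(EE) and mock, the highest of the pairs of groups. The lowest was -0.073, between mock and the combination. As the meaning of the numbers is not stated, they were not taken to pair the samples in the main fit, and whether they do was not tested. The IKBKB probe set differed by 6.56 to 8.15 with 1 array left out, and by 7.35 with the replicate block. Of 49 named genes called against mock, 19 kept the call in all 8 fits that left out 1 array, 31 with probe sets averaged and 37 in the fit of the compared groups alone. The 19 were AFTPH-DT, CCL2, CD70, CD83, FSCN1, HLA-DQA1, HLA-DQB1, IGLC1, IGLV1-44, IL4R, INHBA, KREMEN2, LAMP3, LINC00158, LINC01619, MROCKI, NR4A3, PLAU and RNF144B, and 28 genes lost the call without IKKβ(EE) array 1. All 49 kept it under median centring, quantile normalization and the replicate block. Without _x_at probe sets IGLV1-44 reversed, to -0.16. The causes were not tested. With 2 arrays per group small changes cannot be resolved, and changes from levels near the lower quartile are uncertain in size.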
